A study of Mus musculus with 12 samples.

Results

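Macrophages in tumors release growth factors that act on tumor cells, vessels and fibroblasts. 10 such genes, Igf1, Pdgfa, Pdgfb, Tgfb1, Tgfbi, Vegfb, Hbegf, Areg, Hgf and Gdf15, were followed here in M2-like bone marrow-derived macrophages (BMDM) exposed to interferon beta (IFNβ). They were found by their gene symbols among the 56748 Ensembl mouse genes of the count matrix, and all 10 were listed. 9 passed the filter on low counts that left 15033 genes for testing, and Areg did not pass.

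BMDM were grown with M-CSF at 20 ng/mL from bone marrow of female C57BL/6J mice and polarized for 48 hours with IL4 at 10 ng/mL, and all 4 conditions share these steps. For the next 72 hours they were left untreated (untreated control) or kept in supernatant of YUMM5.2 eGFP cells (eGFP supernatant), in supernatant of YUMM5.2 Ifnb1eGFP cells (Ifnb1eGFP supernatant) or in medium with recombinant IFNβ (rIFNβ). YUMM5.2 is a mouse melanoma line, carrying here a lentiviral, tetracycline-responsive Ifnb1 and eGFP cassette or eGFP alone. Both kinds of donor cell had been given doxycycline at 1 μg/mL for 72 hours, so eGFP supernatant controls for the agent and for other products of the tumor cells. Ifnb1eGFP supernatant was brought to an IFNβ concentration of 1500 pg/mL, rIFNβ was diluted to an equivalent one, and eGFP supernatant was diluted by the same factor. There were 3 libraries per condition, described as 3 mice per condition, but whether libraries with the same replicate number came from the same mouse is not given in the sources used here. The cells are a culture model without tumor cells, and RNA levels say nothing of secreted protein.

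In the GRCm39 annotation, all 10 are protein-coding genes. Igf1 lies at chr10:87693642-87772904 on the plus strand, Pdgfa at chr5:138961758-138983435 on the minus strand and Pdgfb at chr15:79880009-79899181 on the minus strand. Tgfb1 lies at chr7:25386390-25404506 and Tgfbi at chr13:56757336-56787375, both on the plus strand. Vegfb lies at chr19:6958447-6965127 on the minus strand, Hbegf on the minus strand of chromosome 18, Areg at chr5:91287451-91296291 and Hgf at chr5:16758041-16828178 on the plus strand, and Gdf15 at chr8:71082038-71091537 on the minus strand. Exons of other annotated genes overlapped those of 4 of the 10 genes, and the strand setting of the counting is not given in the sources used here. These were antisense noncoding transcripts over 2552 exon bases of Pdgfa, 831 of Hbegf, 391 of Gdf15 and 211 of Hgf, plus an unclassified transcript on the same strand over 484 bases of Hgf. Deposited counts of Pdgfa and Hgf were not whole numbers in any of the 12 libraries, as RSEM gives where reads are shared between genes, so their levels carry that uncertainty.

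Library totals ran from 31526034 to 45348457 counts. As a check of the labels, the 8 interferon response genes summed to 89.7 to 136 CPM (counts per 1000000 counts) in untreated control, 8710 to 9463 in Ifnb1eGFP supernatant and 9272 to 9745 in rIFNβ. In eGFP supernatant they summed to 93.8 to 661, and replicate 2 was the highest by far, the others being at 156 or less. Without that library, 5 growth factors were called lower with Ifnb1eGFP supernatant (Igf1, Pdgfa, Pdgfb, Hbegf and Hgf). Over all genes, 3327 of 15320 were then lower, against 3761 of 15033 with all libraries. The part of the interferon response of that library in these calls was not tested. The 8 macrophage markers summed to 14396 to 18802 CPM without IFNβ and 9818 to 10720 with it, a sum led by Lyz2, while 4 of the 8 were called higher and 3 lower in each IFNβ comparison. Lists of 8 genes each for other blood cells were low and had lower sums with IFNβ, neutrophil genes from 4.36 to 5.91 CPM without it to 0.297 to 1.09 with it, and basophil, mast cell and eosinophil genes from 5.65 to 6.86 to 0.993 to 2.35. Lymphoid and dendritic cell lists stayed at or below 0.853 and 2.31. The 8 stromal markers summed to 37.7 to 87.1 CPM in untreated control, 31.7 to 72.5 in eGFP supernatant, 60.0 to 85.0 in Ifnb1eGFP supernatant and 52.8 to 80.0 in rIFNβ. With Ifnb1eGFP supernatant 3 of these 8 were called higher and 1 lower, beside 30.1% and 25.0% of all genes tested. With rIFNβ 3 were higher and 2 lower, beside 30.7% and 24.6%. The part of any of these lists in a growth factor result was not tested. Of the melanoma list, Tyrp1 was at 0 counts in all 12 libraries, and Mitf, which macrophages express too, made up nearly all of the sum. The 7 genes of the IL4-driven M2-like list summed to 754 to 908 CPM in untreated control and 858 to 977 in eGFP supernatant. They summed to 1013 to 1034 in Ifnb1eGFP supernatant and 840 to 975 in rIFNβ. In each IFNβ comparison 2 of the 7 were called higher and 1 lower, beside the shares of all genes given above. Of this list, Arg1, an IL4 target often used to mark M2-like cells, had mean levels of only 0.261 to 0.662 CPM, whereas Mrc1, which encodes CD206, had 660 to 825. In bulk RNA, fewer cells making a transcript and less transcript per cell cannot be told apart.

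Most of these growth factors act through cell surface kinases. IGF1 binds the IGF1 receptor, PDGF chains A and B bind the PDGF receptors, VEGFB binds VEGFR1 (Flt1), HB-EGF and amphiregulin bind receptors of the EGF family, and HGF binds MET. TGFβ1 is made in a latent form, is activated outside the cell and signals through serine/threonine kinase receptors to SMAD proteins, and Tgfbi encodes a matrix protein named for its induction by TGFβ. GDF15 is a distant relative of TGFβ made under cell stress. M2-like macrophages are known as a source of several of these factors in wound repair and in tumors.

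Sequences upstream of the RefSeq start site (GRCm38.p6) were searched over 250 bases for 8 members that had an entry. The motifs, read on both strands, were the interferon-stimulated response element (ISRE) core (GAAA, any 2 bases, GAAA), the GAS element TTCNNNGAA, the AP-1 site TGANTCA, the cyclic AMP response element TGACGTCA, the GC box GGGCGG, the E-box CACGTG, the TATA box TATAAA, the CCAAT box CCAAT and the SMAD box GTCTAGAC. Of 32851 promoters of the same length, 2.98% held an ISRE core, 7.02% a GAS element, 6.75% an AP-1 site, 1.55% a cyclic AMP response element, 32.7% a GC box, 6.02% an E-box, 12.4% a TATA box, 33.8% a CCAAT box and 0.167% a SMAD box. A match describes the letters and is no evidence of binding. Tgfbi was the member with an ISRE core, which began 194 bases before its start site. It is shown with Tgfb1, the gene of its inducer, which had GC boxes only, and with Areg, the member whose RNA was nearly absent, which had a cyclic AMP response element, a GC box and a TATA box in the last 61 bases. Capitals mark these 4 kinds of match, and bases that annotated transcripts cover were left out, so 3 of the 5 GC boxes of Tgfb1 are in the stretch shown.
Tgfbi, chr13:56609336-56609522, plus strand: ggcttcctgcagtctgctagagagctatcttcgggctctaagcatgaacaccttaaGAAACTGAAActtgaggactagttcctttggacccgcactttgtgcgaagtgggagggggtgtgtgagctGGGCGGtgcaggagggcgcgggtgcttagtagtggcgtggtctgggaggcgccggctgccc
Tgfb1, chr7:25686752-25686964, plus strand: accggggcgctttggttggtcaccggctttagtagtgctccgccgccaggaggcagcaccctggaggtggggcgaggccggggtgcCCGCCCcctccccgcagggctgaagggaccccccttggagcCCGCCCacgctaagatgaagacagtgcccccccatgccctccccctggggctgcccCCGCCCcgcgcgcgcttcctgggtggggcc
Areg, chr5:91139349-91139598, plus strand: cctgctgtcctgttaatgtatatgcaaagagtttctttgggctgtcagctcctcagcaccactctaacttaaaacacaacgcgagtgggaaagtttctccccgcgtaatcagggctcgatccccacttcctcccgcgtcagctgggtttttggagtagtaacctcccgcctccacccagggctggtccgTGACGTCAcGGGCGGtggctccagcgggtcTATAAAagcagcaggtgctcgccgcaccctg
Of the other members in the table, Pdgfa and Vegfb had GC boxes, Igf1 an AP-1 site and a CCAAT box, Gdf15 an E-box and a CCAAT box at its alternative start, and Hgf no match. No ISRE core or GAS element was found in the windows of Igf1, Pdgfa, Tgfb1, Vegfb, Areg, Hgf or Gdf15.

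Most of the growth factor RNAs tested were lower with IFNβ from either source, with the largest falls in the EGF family ligand Hbegf and in Pdgfa. Ifnb1eGFP supernatant was compared with eGFP supernatant to ask how tumoral IFNβ alters macrophage RNA. Of the 9 growth factors tested, 7 were lower (Igf1, Pdgfa, Pdgfb, Tgfb1, Vegfb, Hbegf and Hgf), none was higher, and Tgfbi and Gdf15 did not pass (quasi-likelihood test of edgeR, adjusted by Benjamini-Hochberg over 15033 genes). Among all genes tested, 25.0% were called lower and 30.1% higher in this comparison. The median log2 fold change was -0.50 over the 9 growth factors and 0.03 over all genes. The growth factors were chosen with earlier results of these data known. Shares and medians beside those of all genes, here and with rIFNβ, thus do not test them as a set. Libraries of the 2 conditions did not overlap for 6 of the 9, all lower with IFNβ, where 26.6% of all genes were lower without overlap. Only Hbegf passed the study's thresholds, a log2 fold change of at most -2 and an adjusted p of at most 0.01, as did 2.62% of all genes.

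rIFNβ against untreated control asks the same without supernatant. Here 5 of 9 growth factors were lower (Igf1, Pdgfa, Pdgfb, Hbegf and Hgf) and none was higher, against a background of 24.6% lower and 30.7% higher. The median log2 fold change was -0.41 over the 9 and 0.04 over all genes. Libraries did not overlap for 6 of the 9, the same 5 and Vegfb, against 29.7% of all genes. Hbegf again passed the study's thresholds, as did 2.78% of all genes. The 5 genes called here were also called with Ifnb1eGFP supernatant. These comparisons have no library in common, but they come from the same fit, which shares its estimate of the spread between them. When only the compared conditions were fitted, Igf1 was not called with Ifnb1eGFP supernatant (adjusted p = 0.106, edgeR).

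**Figure D1:**
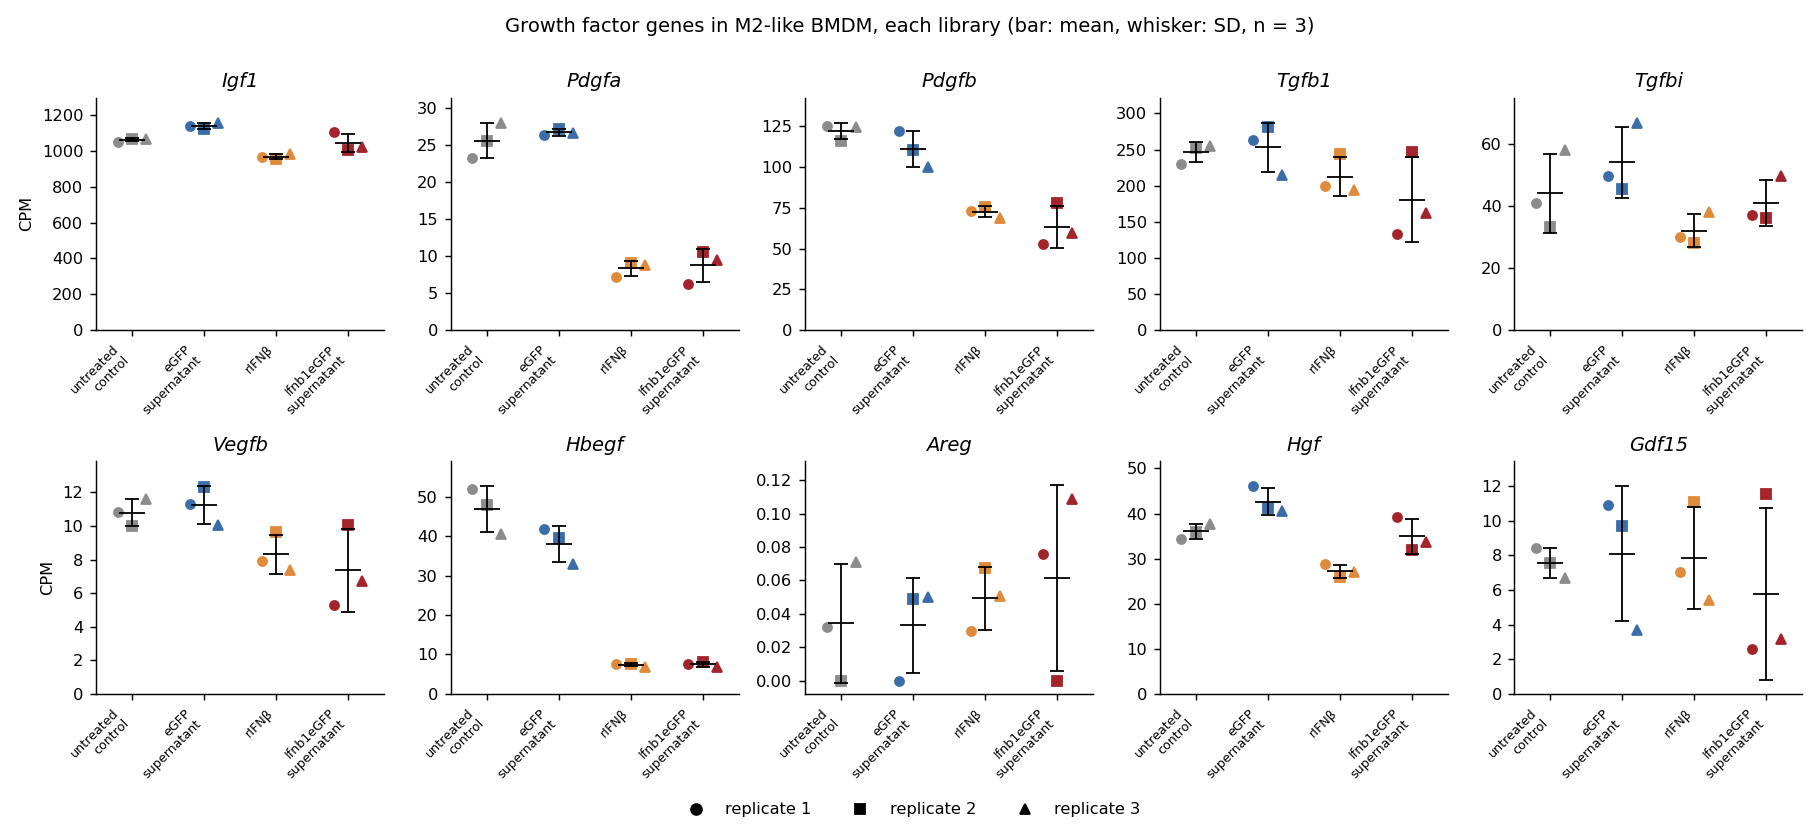
Level of each of the 10 growth factor genes in CPM (linear axis, from 0 for 9 genes) by condition, with a point per library, the shape giving its replicate number, a bar at the mean and whiskers of 1 SD (n = 3). Hbegf and Pdgfa are low in all 6 libraries with IFNβ, Igf1 stays between 955 and 1157 CPM, and Areg has at most 5 counts in a library.

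Hbegf encodes heparin-binding EGF-like growth factor, made as a membrane precursor and released by shedding. Its level was 52.1, 47.9 and 40.6 CPM in the 3 untreated control libraries and 41.7, 39.6 and 32.9 CPM in eGFP supernatant. It was 7.59, 8.02 and 6.86 CPM in Ifnb1eGFP supernatant and 7.57, 7.58 and 6.90 CPM in rIFNβ. All 6 libraries with IFNβ lay at or below 8.02 CPM and all 6 without it at or above 32.9. Hbegf fell by 2.35 on the log2 scale with Ifnb1eGFP supernatant (SE 0.11, adjusted p = 1.73e-08), 5.09-fold. With rIFNβ it fell by 2.67 (SE 0.12, adjusted p = 5.84e-09), 6.37-fold. It was called lower under all 14 alternative fits in both comparisons, which do not count a minimum on the fold change, and also with a minimum log2 fold change of 1.

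Areg encodes amphiregulin, the other EGF family ligand among the 10. It had 1, 0 and 3 counts in untreated control, 0, 2 and 2 in eGFP supernatant, 3, 0 and 5 in Ifnb1eGFP supernatant and 1, 3 and 2 in rIFNβ. 11 of the 12 libraries were at or below 3 counts, the floor set for a fold change, so no fold is given and a difference was not detectable at this depth.

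Pdgfa and Pdgfb encode the A and B chains of platelet-derived growth factor, a mitogen for fibroblasts and mural cells. Pdgfa was at 23.2, 25.4 and 28.0 CPM in untreated control and 26.2, 27.1 and 26.6 CPM in eGFP supernatant. It was at 6.19, 10.6 and 9.40 CPM in Ifnb1eGFP supernatant and 7.18, 9.02 and 8.79 CPM in rIFNβ. No library with IFNβ lay above 10.6 CPM and none without it below 23.2. Pdgfa fell by 1.61 with Ifnb1eGFP supernatant (SE 0.16, adjusted p = 5.09e-06) and by 1.61 with rIFNβ (SE 0.16, adjusted p = 5.04e-06), 3.05-fold and 3.06-fold.

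Pdgfb had the higher level of the pair and the smaller change. Its level was 125, 116 and 125 CPM in untreated control, 122, 110.4 and 100.1 in eGFP supernatant, 52.9, 77.7 and 59.7 in Ifnb1eGFP supernatant and 73.3, 75.6 and 69.0 in rIFNβ. Conditions with and without IFNβ did not overlap, and replicate 2 was the highest of the Ifnb1eGFP supernatant libraries for both PDGF genes. Pdgfb fell by 0.81 with Ifnb1eGFP supernatant (SE 0.12, adjusted p = 1.43e-04) and by 0.75 with rIFNβ (SE 0.12, adjusted p = 2.38e-04). Both PDGF genes were called lower under all 14 alternative fits in both comparisons, but with a minimum log2 fold change of 1 only Pdgfa was.

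Hgf encodes hepatocyte growth factor, the ligand of MET. It was at 34.4, 35.9 and 37.8 CPM in untreated control, 46.0, 41.3 and 40.5 in eGFP supernatant, 39.3, 31.9 and 33.6 in Ifnb1eGFP supernatant and 28.7, 26.0 and 26.9 in rIFNβ. Within each comparison the libraries with IFNβ were the lower ones without overlap, but Ifnb1eGFP supernatant and untreated control overlapped. Hgf fell by 0.29 with Ifnb1eGFP supernatant (SE 0.08, adjusted p = 0.0101) and by 0.41 with rIFNβ (SE 0.08, adjusted p = 1.26e-03), and it was called under all 14 alternative fits in both, but not with a minimum log2 fold change of 1.

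Igf1, the growth factor with the highest level, changed least among the genes called. Its level was 1051, 1064 and 1067 CPM in untreated control, 1137, 1123 and 1157 in eGFP supernatant, 1103, 1004 and 1023 in Ifnb1eGFP supernatant and 964, 955 and 982 in rIFNβ. The spread between libraries was small, with an SD of 8.31 CPM in untreated control and 52.7 CPM in Ifnb1eGFP supernatant. Igf1 fell by 0.13 with Ifnb1eGFP supernatant (SE 0.04, adjusted p = 0.0226), 1.09-fold, and by 0.13 with rIFNβ (SE 0.04, adjusted p = 0.0171), 1.10-fold. These calls were less stable, holding under 7 and 10 of 14 alternative fits. The first was lost without replicate 1 or 3 of eGFP supernatant or replicate 2 or 3 of Ifnb1eGFP supernatant (adjusted p from 0.0542 to 0.0832), and the second without replicate 3 of untreated control (0.0511) or replicate 2 of rIFNβ (0.0573).

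Tgfb1 encodes the TGFβ1 precursor. It was at 230.2, 253 and 255 CPM in untreated control, 264, 281 and 214 in eGFP supernatant, 133, 247 and 163 in Ifnb1eGFP supernatant and 199.7, 244 and 194 in rIFNβ. Replicate 2 of Ifnb1eGFP supernatant lay among the libraries without IFNβ, so the conditions overlapped. The fall of 0.48 with Ifnb1eGFP supernatant passed narrowly (SE 0.19, adjusted p = 0.0488) and was lost without replicate 1 or 2 of eGFP supernatant or replicate 1 or 3 of Ifnb1eGFP supernatant (adjusted p from 0.0864 to 0.147). Over all libraries left out in turn, its log2 fold change ran from -0.77 to -0.35, and the lowest adjusted p was 0.000531. With rIFNβ the log2 fold change was -0.21 (SE 0.19, adjusted p = 0.372) and Tgfb1 was not called. When only the compared conditions were fitted, the first call was lost (adjusted p = 0.118) and the second gained (adjusted p = 0.0285).

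Tgfbi encodes transforming growth factor beta-induced protein, an extracellular adhesion protein. It was at 40.9, 33.3 and 58.0 CPM in untreated control, 49.8, 45.5 and 67.0 in eGFP supernatant, 37.0, 36.2 and 49.7 in Ifnb1eGFP supernatant and 30.0, 28.2 and 38.1 in rIFNβ. Replicate 3 was the highest library in 4 of 4 conditions, and the conditions overlapped. Log2 fold changes were -0.40 with Ifnb1eGFP supernatant (SE 0.21, adjusted p = 0.136) and -0.46 with rIFNβ (SE 0.22, adjusted p = 0.0931), neither called. Of 14 alternative fits, however, 2 called Tgfbi lower with Ifnb1eGFP supernatant and 5 with rIFNβ. Both of the 2 were edgeR fits with a replicate block (adjusted p = 0.000503, and 0.000184 with the GC trend removed as well). The 5 included the same 2 fits (adjusted p = 0.000282 and 2.96e-05), DESeq2 (adjusted p = 0.0470) and edgeR without a filter (adjusted p = 0.0462). What the replicate number stands for is not given in the sources used here. With a library left out, the value for Ifnb1eGFP supernatant ran from -0.56 to -0.22, the latter without replicate 3 of eGFP supernatant (adjusted p = 0.438). For rIFNβ it ran from -0.63 without replicate 2 of untreated control (adjusted p = 0.0335) to -0.21 without replicate 3 of untreated control (adjusted p = 0.420).

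Vegfb encodes vascular endothelial growth factor B. It was at 10.8, 9.98 and 11.6 CPM in untreated control, 11.3, 12.3 and 10.1 in eGFP supernatant, 5.28, 10.1 and 6.71 in Ifnb1eGFP supernatant and 7.92, 9.63 and 7.40 in rIFNβ. Replicate 2 of Ifnb1eGFP supernatant again lay close to the libraries without IFNβ. Vegfb fell by 0.61 with Ifnb1eGFP supernatant (SE 0.19, adjusted p = 0.0187), a call lost without replicate 2 of eGFP supernatant (adjusted p = 0.064) or replicate 3 of Ifnb1eGFP supernatant (adjusted p = 0.0676). Over all libraries left out in turn, its log2 fold change ran from -0.90 to -0.47, and the lowest adjusted p was 0.000265. With rIFNβ the log2 fold change was -0.37 (SE 0.19, adjusted p = 0.124) and Vegfb was not called. Fitting only the compared conditions again exchanged the calls (adjusted p = 0.0612 and 0.00973).

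Gdf15, a stress-induced cytokine, had the highest coefficient of variation of the 9 genes tested in 3 of 4 conditions, the exception being untreated control (11.3%, with Tgfbi at 28.7%). It was at 8.42, 7.55 and 6.72 CPM in untreated control, 10.9, 9.72 and 3.66 in eGFP supernatant, 2.60, 11.5 and 3.17 in Ifnb1eGFP supernatant and 7.03, 11.1 and 5.41 in rIFNβ. Its coefficient of variation reached 86.6% in Ifnb1eGFP supernatant, where replicate 2 was the highest of all 12 libraries. It was called in neither comparison, with log2 fold changes of -0.50 (SE 0.53, adjusted p = 0.459) and 0.06 (SE 0.53, adjusted p = 0.935). Without replicate 2 of Ifnb1eGFP supernatant the first value was -1.48 (adjusted p = 0.0130).

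**Figure D2:**
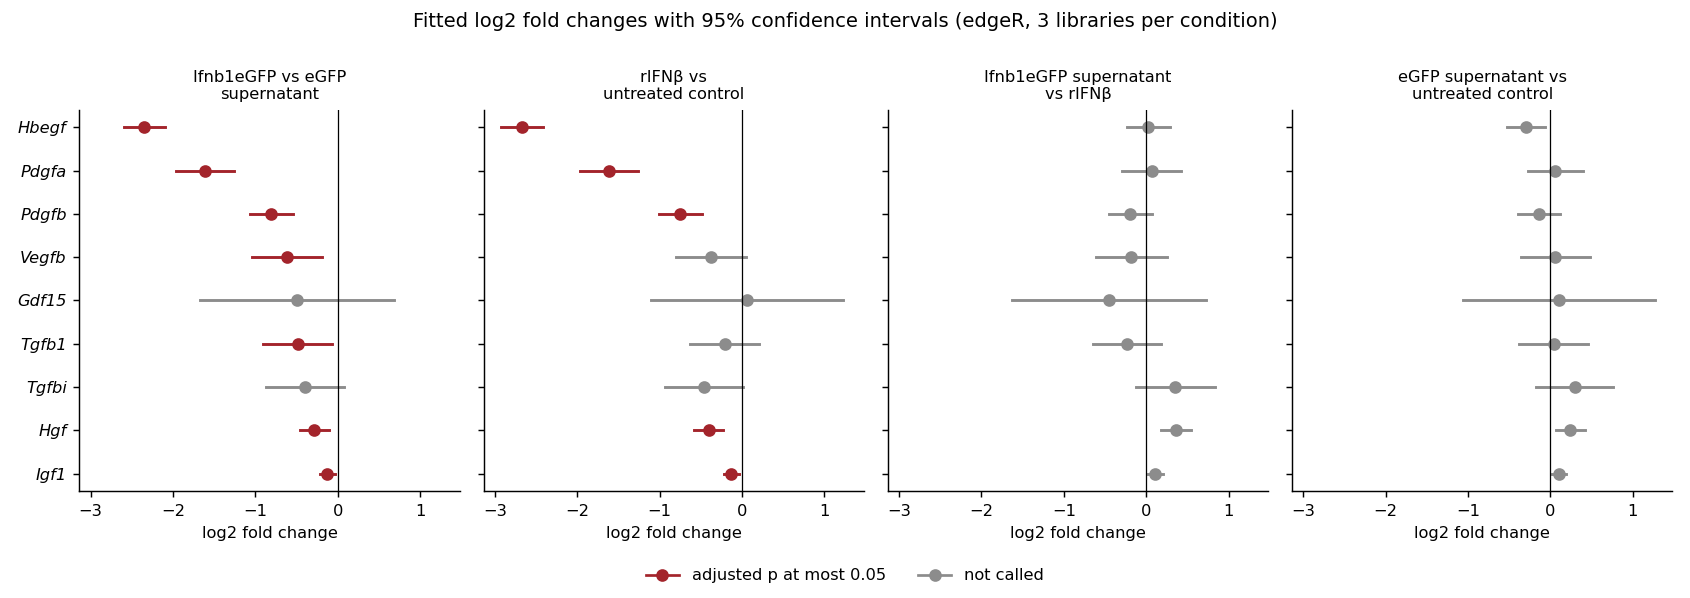
Fitted log2 fold change (x axis) of the 9 growth factors tested, a row each, in 4 comparisons, with 95% confidence intervals and genes called at an adjusted p of at most 0.05 in red. Calls are seen in the comparisons with and without IFNβ (7 and 5 genes), and none in the comparison of the IFNβ sources or of eGFP supernatant with untreated control.

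In Ifnb1eGFP supernatant, replicates 1 and 2 stood apart by the GC content of genes, and several growth factors moved with them. Across 14969 genes, the deviation of a library from its condition mean correlated with GC content at r = -0.40 in replicate 1 and r = 0.39 in replicate 2 of Ifnb1eGFP supernatant, against -0.15 to 0.11 in the other 10 libraries. Among the genes tested, GC content of Gdf15 and Pdgfb stood at percentiles 98.2 and 97.1, that of Igf1 and Hgf at 3.14 and 1.18, and that of the other 5 at 63.4 to 77.9. In Ifnb1eGFP supernatant, Gdf15, Pdgfb, Pdgfa, Vegfb and Tgfb1 were lowest in replicate 1 and highest in replicate 2, and Igf1 and Hgf were highest in replicate 1 and lowest in replicate 2. With the GC trend of each library removed, a setting chosen after seeing the data, the same 7 genes were called lower with Ifnb1eGFP supernatant and the same 5 with rIFNβ, but the size of several falls moved. Over all genes, 4419 and 4571 of 14969 were then lower. The log2 fold change of Igf1 went from -0.13 to -0.35 with Ifnb1eGFP supernatant and from -0.13 to -0.32 with rIFNβ, that of Hgf from -0.29 to -0.47 with Ifnb1eGFP supernatant, and that of Pdgfb from -0.81 to -0.46. Hbegf and Pdgfa, at -2.35 and -1.52, stayed close to their values.

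**Figure D3:**
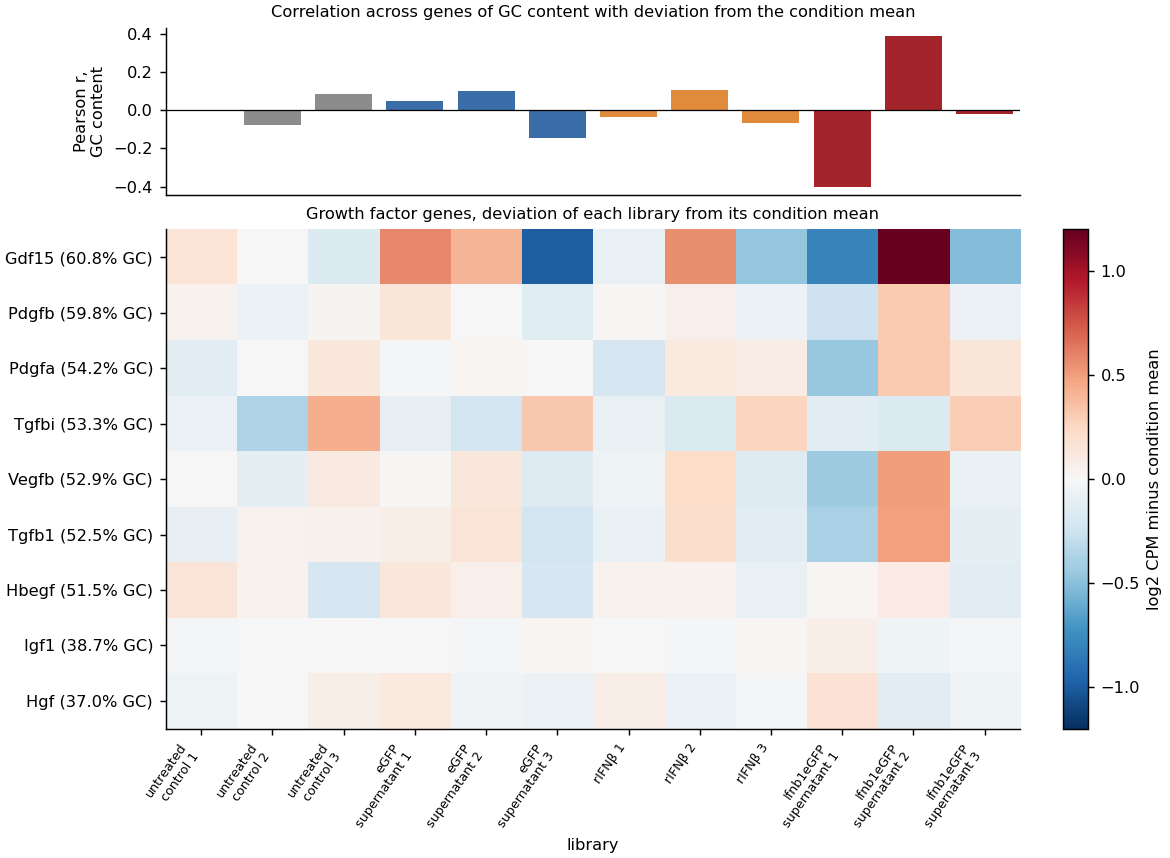
Top, Pearson r across genes between GC content and each library's deviation from its condition mean; bottom, the deviation of 9 growth factors in log2 CPM (color), with genes ordered by GC content and 1 column per library. Replicates 1 and 2 of Ifnb1eGFP supernatant have the largest r, of opposite sign, and Gdf15 at the top moves with them most.

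The sources of IFNβ were compared directly at the same labelled concentration. No growth factor was called between Ifnb1eGFP supernatant and rIFNβ, where 0.160% of all genes were called. Without adjustment 2 of 9 had a p under 0.05, against 8.57% of all genes, and DESeq2 called 1 gene, Hgf (adjusted p = 0.0171). Over all genes, DESeq2 called 115 of 12100. For Hbegf the log2 difference was 0.03 (95% interval -0.23 to 0.29) and for Pdgfa 0.06 (-0.29 to 0.42). For Pdgfb it was -0.20 (-0.46 to 0.07), for Tgfb1 -0.23 (-0.65 to 0.18) and for Vegfb -0.18 (-0.61 to 0.25). For Tgfb1 the interval reaches past the fall with Ifnb1eGFP supernatant, and for Vegfb it ends just short of it (-0.609 against -0.612). For Hbegf, Pdgfa and Pdgfb it ends further from the fall. Hgf was higher in all 3 libraries of Ifnb1eGFP supernatant than in any of rIFNβ, by 0.36 (95% interval 0.18 to 0.54, unadjusted p = 0.000988, adjusted p = 0.199 with edgeR). Igf1 also lay higher without overlap, by 0.11 (0.02 to 0.20, adjusted p = 0.555), as did 8.22% of all genes. Without replicate 2 of Ifnb1eGFP supernatant, Pdgfb and Tgfb1 were called lower and Hgf higher, while 1051 of 15333 genes were called, 857 of them lower, against 24 of 15033 with all libraries.

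eGFP supernatant was compared with untreated control to see what supernatant does without added IFNβ. No growth factor was called, and 0.299% of all genes were. Without adjustment 3 of 9 had a p under 0.05, against 8.0% of all genes. DESeq2 called 0 growth factors and 204 of 13275 genes. With a replicate block, edgeR called Hbegf lower (adjusted p = 0.0396) and 122 of 15033 genes. With the GC trend removed as well, Hbegf was called lower and Tgfbi higher, among 285 of 14969 genes. Hbegf had a log2 fold change of -0.30 (SE 0.10, unadjusted p = 0.0152, adjusted p = 0.408), Hgf 0.24 (SE 0.08, unadjusted p = 0.0121, adjusted p = 0.362) and Igf1 0.10 (SE 0.04, unadjusted p = 0.0304, adjusted p = 0.553). Hgf and Igf1 were higher in eGFP supernatant without overlap, as were 7.96% of all genes, and Hbegf overlapped. The interaction, which asks whether the response to IFNβ differed with and without supernatant, called no growth factor and no gene at all in the main edgeR fit. Over all genes, edgeR without a filter called 1, and DESeq2 called 16 of 6807. In the main fit of the interaction, no growth factor had an unadjusted p under 0.05, against 4.40% of all genes. Its estimate furthest from 0 relative to its error was that of Hbegf, 0.33 (SE 0.16, adjusted p = 0.926), which is the gap between falls of 2.35 and 2.67.

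Levels were compared between genes per kilobase of merged exons, as RPKM. Igf1, Tgfb1 and Pdgfb held the first 3 places in all 4 conditions, with means of 104, 48.4 and 28.8 RPKM in untreated control, and their ranges did not overlap there. Tgfbi was next at 11.7 RPKM (8.82 to 15.4) and overlapped Hbegf at 9.17 (7.95 to 10.2). Pdgfa, Hgf, Gdf15 and Vegfb followed at 3.32 to 3.78 RPKM, with neighbors that overlapped in every case, and Areg was last at 0.028. In eGFP supernatant Tgfbi and Hbegf no longer overlapped, at 14.3 and 7.45 RPKM, and Hgf, Pdgfa, Gdf15 and Vegfb again overlapped. With IFNβ the order changed in its lower part. By their means, Hbegf and Pdgfa stood in places 8 and 9, at 1.47 and 1.29 RPKM in Ifnb1eGFP supernatant and 1.44 and 1.23 RPKM in rIFNβ, below Hgf, Gdf15 and Vegfb. In Ifnb1eGFP supernatant, however, Gdf15 overlapped both, at 1.15, 5.09 and 1.40 RPKM in replicates 1, 2 and 3. In Ifnb1eGFP supernatant the ranges of Pdgfb (12.4 to 18.3) and Tgfbi (9.59 to 13.2) overlapped, as did those of Hbegf and Pdgfa, which in rIFNβ did not. These levels depend on the length used. Per kilobase of the longest transcript, the first 3 places were the same in all 4 conditions, but Tgfb1 was at 95.6 RPKM in untreated control. There Hbegf (16.2) stood above Tgfbi (14.7), and Pdgfa (7.71) further above Hgf (5.12). In Ifnb1eGFP supernatant Pdgfa (2.63) then stood just above Hbegf (2.59).

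**Figure D4:**
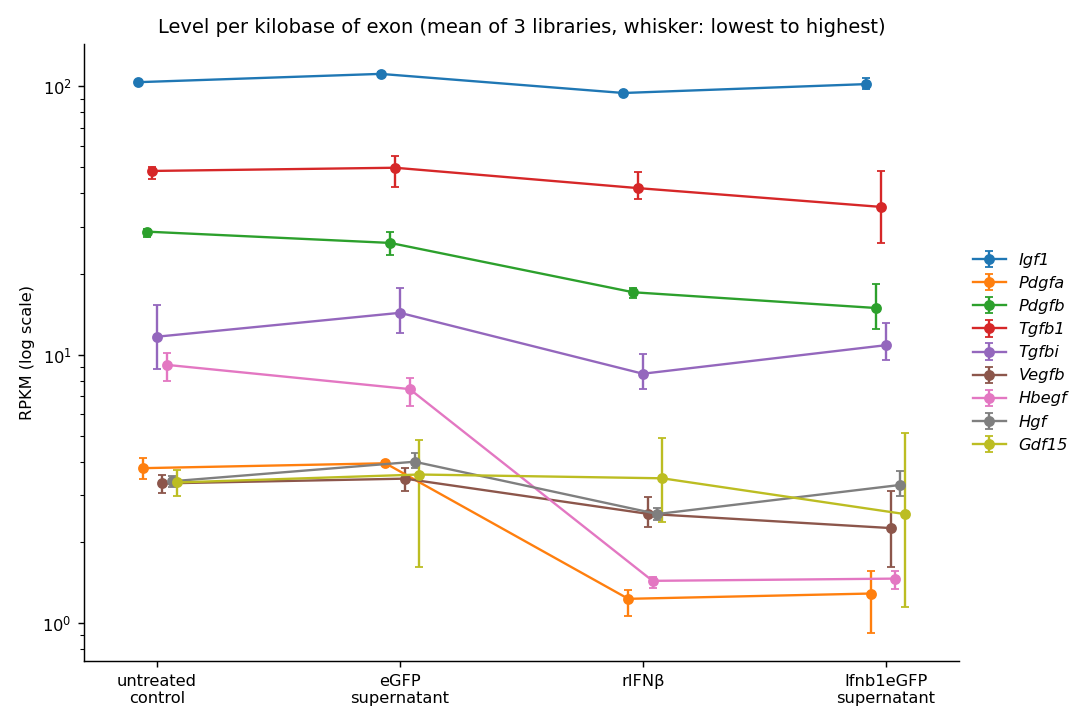
Mean level per kilobase of exon of 9 growth factors (RPKM, log axis) in the 4 conditions, with whiskers from the lowest to the highest of 3 libraries and lines joining each gene. Igf1, Tgfb1 and Pdgfb keep the top 3 places, Hbegf and Pdgfa drop to the bottom with IFNβ, and Areg, near 0, is not drawn.

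Receptors, activators and targets of these factors were read from 4 lists of 149 genes in all, of which 122 were tested. With Ifnb1eGFP supernatant 39 were higher (32%) and 33 lower (27.0%), beside 30.1% and 25.0% over all genes, with a median log2 fold change of 0.14. With rIFNβ 37 were higher (30.3%) and 36 lower (29.5%), beside 30.7% and 24.6%, with a median of 0.04. These shares are near those of all genes. 1 gene of the lists, Thbs1, was called between the IFNβ sources, and the same gene was the 1 called between eGFP supernatant and untreated control. Thbs1, which encodes thrombospondin-1, an activator of latent TGFβ, had means of 127 ± 25 CPM (SD, n = 3) in untreated control, 235 ± 19 in eGFP supernatant, 311 ± 35 in rIFNβ and 645 ± 52 in Ifnb1eGFP supernatant, and was picked with its values in view. Named genes below are those past the study's thresholds with Ifnb1eGFP supernatant and the 2 largest rises and falls of each list, and a gene that the rule does not cover is marked as picked with its values in view.

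Of 22 other growth factor ligands tested, 8 were higher (36.4%) and 4 lower (18.2%) with Ifnb1eGFP supernatant, beside 30.1% and 25.0% over all genes. With rIFNβ 6 were higher (27.3%) and 3 lower (13.6%), beside 30.7% and 24.6%. Pdgfc, another PDGF ligand, rose where Pdgfa and Pdgfb fell, from 8.20 to 29.4 CPM with Ifnb1eGFP supernatant (log2 fold change 1.84, SE 0.12) and from 6.37 to 25.1 CPM with rIFNβ (1.98, SE 0.12). Bmp2, a ligand of the TGFβ superfamily, rose in both comparisons (log2 fold changes 1.85 and 2.20). Fgf13, which encodes an intracellular FGF homolog, fell in both comparisons (log2 fold changes -2.59 and -2.66), from 19.7 to 3.29 and from 23.8 to 3.77 CPM. Mst1, which encodes the HGF-like ligand macrophage stimulating protein, had means of at most 0.879 CPM, fell by 1.18 with Ifnb1eGFP supernatant (adjusted p = 0.0245) and was not called with rIFNβ (-0.91, adjusted p = 0.0642). Without replicate 1 of eGFP supernatant or replicate 1 or 3 of Ifnb1eGFP supernatant the Mst1 call was lost. Vegfa, picked with its values in view, fell in both comparisons (log2 fold changes -0.69 and -0.72), from 126 to 78.1 and from 105 to 63.9 CPM.

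Of 24 receptors tested, 6 were higher (25.0%) and 9 lower (37.5%) with Ifnb1eGFP supernatant, beside 30.1% and 25.0% over all genes. With rIFNβ 8 were higher (33.3%) and 12 lower (50%), beside 30.7% and 24.6%. Met, the HGF receptor, fell in both comparisons (log2 fold changes -1.66 and -1.53), from 20.5 to 6.48 and from 17.8 to 6.15 CPM. Flt1, the receptor that VEGFB binds, fell in both comparisons (log2 fold changes -1.02 and -1.13). Kdr and Flt4, the other VEGF receptors, rose by 2.25 and 2.60 with Ifnb1eGFP supernatant and by 2.59 and 2.30 with rIFNβ, yet their means did not pass 3.56 CPM for Kdr and 0.657 CPM for Flt4. The IGF1 receptor gene Igf1r, picked with its values in view, fell in both comparisons (log2 fold changes -0.99 and -1.25), from 11.7 to 5.91 and from 12.1 to 5.08 CPM.

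Of 39 genes for processing and binding, 10 were higher (25.6%) and 15 lower (38.5%) with Ifnb1eGFP supernatant, and 8 were higher (20.5%) and 15 lower (38.5%) with rIFNβ, beside the same shares of all genes as above. IGF binding had 1 of 8 lower in each comparison, EGF ligand shedding 3 and 2 of 7, and PDGF and VEGF processing 0 and 1 of 2. HGF activation had the largest share lower of any part of this list. Among 7 tested genes around HGF activation, 5 were lower in each comparison (71.4%), where 25.0% and 24.6% of all genes were. They included Plaur, the urokinase receptor gene, which fell by 2.16 with either source, from 119 to 26.6 and from 141 to 31.4 CPM, Hgfac, the HGF activator protease, which fell in both comparisons (log2 fold changes -3.37 and -3.03) at means of at most 0.572 CPM, and Spint1, an inhibitor of that protease, which fell in both comparisons (log2 fold changes -2.07 and -2.21), at means of at most 0.583 CPM. Activator and inhibitor thus moved the same way. Plau, the urokinase gene, picked with its values in view, fell in both comparisons (log2 fold changes -1.51 and -1.29), from 1061 to 373 and from 1074.5 to 440.2 CPM.

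Around TGFβ latency, 4 of 15 tested genes were higher (26.7%) and 6 lower (40.0%) in each comparison, where 30.1% and 30.7% of all genes were higher and 25.0% and 24.6% lower. Mmp9, a metalloprotease that can release latent TGFβ, fell in both comparisons (log2 fold changes -5.09 and -5.32), from 353 to 10.4 and from 519 to 12.9 CPM. Lrrc32, which encodes the latent TGFβ carrier GARP, fell in both comparisons (log2 fold changes -3.48 and -3.51), from 25.4 to 2.28 and from 23.4 to 2.09 CPM. Itgb8, a chain of a TGFβ-activating integrin, fell in both comparisons (log2 fold changes -2.55 and -3.85) but had means of at most 0.915 CPM, and Ltbp1, a latent TGFβ binding protein, rose by 2.03 and 1.83. Cd9, a tetraspanin that associates with the HB-EGF precursor, fell in both comparisons (log2 fold changes -2.31 and -2.53), from 845 to 170 and from 886 to 153 CPM. Stc1 and Stc2, stanniocalcins that restrain IGF release, rose by 2.13 and 3.06 with Ifnb1eGFP supernatant at means of at most 0.779 CPM. With rIFNβ, Stc2 rose by 1.73 and Stc1 was not called (0.51, adjusted p = 0.439).

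Of 37 tested genes for signalling and targets, 15 were higher (40.5%) and 5 lower (13.5%) with Ifnb1eGFP supernatant, beside 30.1% and 25.0% over all genes. With rIFNβ 15 were higher (40.5%) and 6 lower (16.2%), beside 30.7% and 24.6%. Smad7 and Bambi, both inhibitors of TGFβ signalling, fell in both comparisons, with log2 fold changes of -1.18 and -1.21 for Smad7 and -1.41 and -1.37 for Bambi. Id3, a target of BMP signalling, rose by 2.04 and 2.58. Ddit3, which encodes the stress factor CHOP and was listed among inducers of Gdf15, rose by 2.58 and 2.68, from 22.3 to 134 and from 24.8 to 159 CPM, while Gdf15 was not called.

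**Figure D5:**
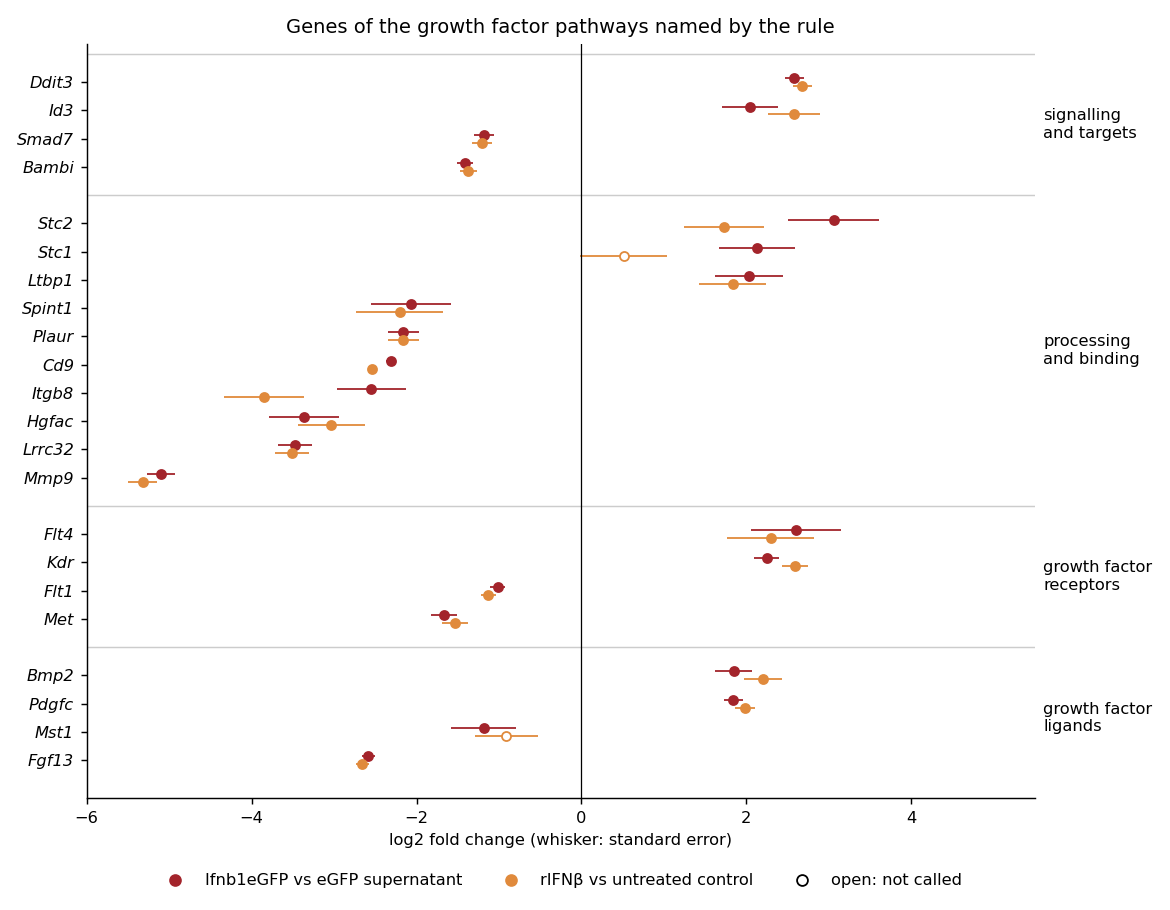
Log2 fold change with standard error of the 22 pathway genes named by the rule, grouped by list, with Ifnb1eGFP against eGFP supernatant in red, rIFNβ against untreated control in orange and open points for values not called. Mmp9, Lrrc32 and Hgfac lie furthest to the left, and Mst1 and Stc1 are open for rIFNβ.

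Genes with the most similar pattern over the 12 libraries were found by Pearson r of log2 CPM, which is a description, since libraries share conditions. For Hbegf they were Vcl (r = 0.999) and Pi4ka (0.998), for Pdgfa Adss1 (0.996) and Klhl3 (0.994), and for Pdgfb Enoph1 (0.995) and Tkt (0.994). Of the 9 genes, Tgfbi had the partners with the lowest r. For Tgfb1 they were Frmd8 (0.990) and Csnk1g2 (0.988), for Vegfb Cbarp (0.991) and Adam15 (0.986), and for Gdf15 Steap3 (0.978) and Med9 (0.971). For Hgf they were Mmp8 (0.978) and Il7r (0.966), for Igf1 Wdr26 (0.972) and Gm56862 (0.970), and for Tgfbi Gm37660 (0.914) and Tial1 (0.900).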

How the data were processed

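The authors sequenced TruSeq Stranded Total RNA libraries, ran RSEM (v1.3.3 in the processing notes) and deposited its expected counts per Ensembl gene, neither normalized nor filtered. The genome is written GRCm39 mm10 in the methods, so the build used for counting is uncertain. Gene positions and lengths here are those of GRCm39 (GENCODE), and promoter sequences are RefSeq's on GRCm38.p6. Expected counts were rounded, since 12.0% of values were not whole.

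In R 4.3.3, edgeR 4.0.16 was used with filterByExpr, TMM factors and 1 quasi-likelihood fit over 12 libraries without a replicate block. P values were adjusted by Benjamini-Hochberg over 15033 genes, and genes were called at an adjusted p of at most 0.05. They measure the spread between these libraries. The standard error is the log2 fold change divided by the root of F. CPM used TMM-scaled library sizes, RPKM merged exon lengths (the longest transcript as an alternative), and log2 CPM a prior count of 2. An exact permutation test of 3 against 3 cannot go below p = 0.1 and was not run. The fit was tested on simulated data, where few genes changed, in Ifnb1eGFP supernatant only, at a fixed and small spread. That does not test it where many genes change or libraries vary widely, as here.

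The growth factors and lists were chosen with earlier results of these data known. Pathway genes named are those past the study's thresholds (log2 fold change at or beyond 2 in size, adjusted p of at most 0.01) in Ifnb1eGFP against eGFP supernatant and the 2 largest rises and falls of each list. Likeness took the 2 genes of highest r.

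Alternatives were DESeq2 1.42.0, RLE factors, library totals, no filter, a replicate block, only the compared conditions, a minimum log2 fold change of 1 and each library left out. Removal of the GC trend by splines of 5 degrees of freedom, alone and with the block, was added after seeing the data. The 14 alternative fits of a gene in a comparison are all of these except the minimum fold change. Depth is given by library totals of 31526034 to 45348457 counts, and 3 counts per library was the floor.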

Additional observations from a re-analysis of the deposited data

How the results depend on the processing

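The 7 growth factors called with Ifnb1eGFP against eGFP supernatant became 2 with a minimum log2 fold change of 1 (Pdgfa and Hbegf) and 4 when only the groups compared were fitted, and leaving out each library gave 4 to 7, with 4 without Ifnb1eGFP supernatant replicate 3. The 5 called with rIFNβ became 2 with that fold change, 7 when only the groups compared were fitted (Tgfb1 and Vegfb added) and 4 to 6 with a library left out. Tgfb1 and Vegfb, called only with Ifnb1eGFP supernatant in the joint fit, were thus called only with rIFNβ in the separate fits. Over all genes, 3173 of 14437 were lower with Ifnb1eGFP supernatant and 4212 of 14251 with rIFNβ in the separate fits. In the joint fit 3761 and 3705 of 15033 were lower, so calls over all genes moved the same way. With a library left out, 3299 to 4248 genes were lower with Ifnb1eGFP supernatant and 3288 to 3427 with rIFNβ. The 0 called between Ifnb1eGFP supernatant and rIFNβ became 1 with DESeq2 and 0 to 3 with a library left out, the 3 being without Ifnb1eGFP supernatant replicate 2. The causes were not tested. Pdgfa, Pdgfb, Hbegf and Hgf were called in both IFNβ comparisons under all 14 alternative fits, which leave out the minimum log2 fold change.

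Libraries with the same replicate number deviated together at r = 0.06 to 0.25 over 18 pairs, of which 13 were over 0.1, and the closest library of another condition had the same number in 35 of 36 cases, a hint from the data and not from the design. The replicate block gave 8 called with Ifnb1eGFP supernatant and 6 with rIFNβ, adding Tgfbi to each (adjusted p = 0.000503 and 0.000282), and 1 for eGFP supernatant against untreated control (Hbegf, adjusted p = 0.0396). Over all genes, 4019 and 3915 of 15033 were lower in the IFNβ comparisons, and 122 were called between eGFP supernatant and untreated control. With the GC trend removed as well, the block gave 8, 7, 1 (Tgfbi, between the IFNβ sources) and 2 (Tgfbi and Hbegf, eGFP supernatant against untreated control). Of 14969 genes, 4714 and 4821 were then lower in the IFNβ comparisons. Between the IFNβ sources 109 were called, and 285 between eGFP supernatant and untreated control.

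Only log2 fold changes that were not called turned direction. Under the replicate block these were Gdf15 at -0.038 with rIFNβ and -0.0041 with eGFP supernatant, and Pdgfa at -0.010 in the interaction. For Pdgfb between the IFNβ sources the values were 0.019 with the GC trend removed and 0.019 with the block as well, and in the interaction 0.13 and 0.13. In the interaction Igf1 was at -0.016 without a filter, -0.031 with the GC trend removed and -0.032 with the block as well, and Pdgfa at -0.019 without a filter. With a library left out, Gdf15 ran from -0.28 to 0.27 with rIFNβ and from -0.17 to 0.45 with eGFP supernatant, where Pdgfa ran from -0.0051 to 0.13, Tgfb1 from -0.041 to 0.15 and Vegfb from -0.013 to 0.13. Between the IFNβ sources Pdgfa ran from -0.092 to 0.26, Vegfb from -0.47 to 0.0083 and Hbegf from -0.026 to 0.088. In the interaction Igf1 ran from -0.029 to 0.035, Pdgfa from -0.15 to 0.20, Pdgfb from -0.23 to 0.064 and Tgfbi from -0.19 to 0.24. Counts within the pathway lists stayed within 1.5 times in 217 of 224 settings. Depth limits Areg and pathway genes under 1 CPM.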
